A study of Mus musculus with 6 samples.

Results

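The cyclin-dependent kinase inhibitor genes of the mouse, Cdkn1a, Cdkn1b, Cdkn1c, Cdkn2a, Cdkn2b, Cdkn2c and Cdkn2d, were examined in peak lists of open chromatin from hematopoietic stem cells. The 7 genes were chosen by symbol from the 49554 genes of the RefSeq table of the build GRCm38.p6 (mm10), and every peak that overlapped a gene or the 20 kb on either side was taken. Overlapping peaks of the 6 libraries were merged into 84592 regions genome-wide, of which 36 lay in these windows. The libraries were made by ATAC-seq, which uses the Tn5 transposase to insert adapters into accessible DNA, from about 20000 sorted bone marrow cells that lacked lineage markers and CD48 and carried Sca-1, c-Kit and CD150. There were 3 libraries labelled Dek_cKO, from mice whose Dek alleles are both floxed and which also carried Tie2-Cre. The 3 libraries labelled Dek_fl came from mice with the same floxed alleles and no Cre in the label, so both groups share the floxed Dek gene. All mice were C57BL/6, aged 12 weeks and kept under homeostatic conditions, per the labels. Tie2-Cre is driven by control DNA of the Tek gene, which is active in blood and endothelial cells, so the deletion is not limited to stem cells. Dek encodes a chromatin-bound nuclear protein.

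Cyclin-dependent kinase inhibitors hold cells in G1 or in quiescence by binding the kinases that phosphorylate the retinoblastoma protein. The Cip/Kip proteins p21 (Cdkn1a), p27 (Cdkn1b) and p57 (Cdkn1c) bind cyclin-kinase complexes, mainly those of Cdk2, while the Ink4 proteins p16 (Cdkn2a), p15 (Cdkn2b), p18 (Cdkn2c) and p19 (Cdkn2d) bind Cdk4 and Cdk6. Cdkn2a also encodes Arf, an inhibitor of Mdm2 and so an activator of p53, from a separate upstream first exon. In mouse blood stem cells p57 and p27 are known for keeping cells quiescent, p21 for the response to stress, and Cdkn2a for its repression by the Polycomb protein Bmi1.

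The promoter windows of Cdkn1a, Cdkn1b and Cdkn2a are printed because their starts differed in how many libraries covered them with a peak. Each window runs 5′ to 3′ on the strand of the gene, from 250 bases before to 50 after a start, and comes from RefSeq (GRCm38.p6). Capitals mark matches to the letters searched, read on either strand. These were, for general promoter elements, TATAAA for the TATA box, CCAAT for the box of that name, and GGGCGG for the GC box. For families of transcription factors, the letters CACGTG stood for the E-box, TTCCCGC for the E2F core, and TAAACA for the FOXO core. The letters TGTGGT stood for the RUNX core, while those of GATA factors were AGATAA and those of ETS factors were CCGGAAG. Cdkn1a lies on the plus strand, and its upstream start (window chr17:29090729-29091028) was covered in 0 libraries and its downstream start (chr17:29093519-29093818) in 4. The Cdkn1b start (chr6:134920151-134920450, plus strand) was covered in all 6. Cdkn2a lies on the minus strand, and its upstream start (chr4:89294570-89294869), that of Arf by textbook exon order, was covered in 5 and its downstream start (chr4:89282143-89282442), that of p16, in 4.
Cdkn1a, upstream start: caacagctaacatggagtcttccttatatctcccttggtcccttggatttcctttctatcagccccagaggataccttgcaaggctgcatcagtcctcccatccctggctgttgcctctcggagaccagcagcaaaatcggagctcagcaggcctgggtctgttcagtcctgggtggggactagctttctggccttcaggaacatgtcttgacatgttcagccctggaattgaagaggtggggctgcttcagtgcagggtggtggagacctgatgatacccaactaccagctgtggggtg
Cdkn1a, downstream start: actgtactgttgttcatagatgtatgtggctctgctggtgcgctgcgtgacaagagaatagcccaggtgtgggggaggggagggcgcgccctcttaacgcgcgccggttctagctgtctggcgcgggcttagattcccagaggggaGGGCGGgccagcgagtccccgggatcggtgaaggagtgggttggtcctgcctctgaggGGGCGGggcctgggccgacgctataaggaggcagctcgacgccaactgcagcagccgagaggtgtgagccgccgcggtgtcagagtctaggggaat
Cdkn1b: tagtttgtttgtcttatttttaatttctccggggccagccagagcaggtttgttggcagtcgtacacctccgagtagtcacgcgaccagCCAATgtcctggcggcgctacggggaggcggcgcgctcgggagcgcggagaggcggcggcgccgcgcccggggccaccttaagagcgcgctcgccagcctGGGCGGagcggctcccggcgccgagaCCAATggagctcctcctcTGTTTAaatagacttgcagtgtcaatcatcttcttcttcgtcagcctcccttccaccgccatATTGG
Cdkn2a, upstream start: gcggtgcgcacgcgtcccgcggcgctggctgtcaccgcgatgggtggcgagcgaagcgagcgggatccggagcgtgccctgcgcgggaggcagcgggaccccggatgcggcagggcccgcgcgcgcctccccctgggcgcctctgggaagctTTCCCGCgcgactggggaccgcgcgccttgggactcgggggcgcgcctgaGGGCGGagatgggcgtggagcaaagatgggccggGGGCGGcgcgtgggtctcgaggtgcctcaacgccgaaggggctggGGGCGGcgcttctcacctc
Cdkn2a, downstream start: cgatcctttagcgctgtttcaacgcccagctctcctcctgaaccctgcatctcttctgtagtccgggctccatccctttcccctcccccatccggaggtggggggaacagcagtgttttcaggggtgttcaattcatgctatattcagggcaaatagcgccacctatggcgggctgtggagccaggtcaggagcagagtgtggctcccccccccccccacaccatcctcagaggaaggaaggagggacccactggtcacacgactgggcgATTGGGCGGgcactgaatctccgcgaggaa

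The tables held 9 promoter windows for 6 of the genes; Cdkn1c is named only, and its annotated ends were used in place of a start. The GC box was found in 7 of the 9 windows, against 35.7% of all 32851 tabulated windows. The window of the upstream Cdkn1a start held none of the letters searched, had 2 CpG dinucleotides and was 54.7% G or C. Its downstream start had 23 CpG, 64.7% GC and 2 GC boxes, from 104 to 99 and from 46 to 41 bases before the start. The Arf window was the richest of the 9 in CpG, with 45, and 77.0% GC, at the 98.1 percentile of all windows for CpG, whose median is 7 CpG and 52.7% GC. The p16 window had 12 CpG and 60.3% GC, with a CCAAT box read on the opposite strand that overlaps a GC box downstream of the start. The E2F core, present in 4.60% of all windows, was found in the Arf window and at the upstream Cdkn2c start. Only the Cdkn1b window held the FOXO core, which 13.4% of all windows hold, on the opposite strand from 17 to 12 bases before the start. CCAAT was found in 4 of the 9 windows and in 37.4% of all windows, and CACGTG at the downstream Cdkn2c start alone among the 9 and in 7.15% of all. The TATA box, RUNX, GATA and ETS letters were in none of the 9 windows and in 13.6%, 16.8%, 11.2% and 8.86% of all windows. These matches describe letters and not bound sites.

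Each library has its own deposited peak list, and the lists differed in length and threshold. Those labelled Dek_cKO held 70756, 73173 and 27170 peaks in replicates 1, 2 and 3, and those labelled Dek_fl held 52451, 71555 and 23813. The lowest −log10 q-value was 1.30 and 1.33 in Dek_cKO replicates 1 and 2 and 1.30 in both Dek_fl replicates 1 and 2, but 2.82 in Dek_cKO replicate 3 and 2.83 in Dek_fl replicate 3. The replicate 3 lists of both groups thus had the stricter threshold. The read depth of the libraries is unknown. Peaks at Tek, whose control DNA drives Tie2-Cre, were stronger in the libraries labelled Dek_fl, which have no Cre in the label. At the lower end of the gene the −log10 p-value was 32.9, 20.5 and 8.59 in the libraries labelled Dek_cKO. It was 260, 576 and 56.6 in those labelled Dek_fl. A further Tek peak inside the gene, with −log10 p of 231, 435 and 45.9, was called in the 3 libraries labelled Dek_fl and in none labelled Dek_cKO. The Tek peaks go against the labels if the transgene carries this part of Tek, which no source used here gives and which was not tested. Every direction given here is thus a difference between libraries as they are labelled. An end of Dek carried a peak in all 6 libraries, which does not check the deletion, since no source used here gives the floxed part. Of 10 stem and progenitor genes, Kit and Meis1 had a peak at their start in all 6 libraries, 7 had one in 4 or 5, and Ly6a, which encodes the sort marker Sca-1, in 0 Dek_cKO libraries and 1 Dek_fl library. Start peaks were absent from every library at Cd3e, Cd3d, Ncr1, Cd79a, Elane, Ly6g, Hbb-bt and Cdh5, while Lck had one in 1 Dek_cKO library. All 6 libraries had a start peak at 1 of 5 endothelial genes (Kdr), at the erythroid genes Klf1 and Epor, and at none of the 4 B lymphoid, 4 T and NK and 5 granulocyte and monocyte genes, and the part of other cells in the results was not tested. The labels do not say whether the libraries of a group came from separate animals, so p-values speak only of the spread among the libraries, which may be technical.

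Peaks were called around all 7 genes in both groups. The windows held 30, 32 and 13 peaks in the Dek_cKO libraries (mean 25 ± 10.4, SD, n = 3) and 24, 30 and 14 in the Dek_fl libraries (22.7 ± 8.1, SD, n = 3). The groups overlapped, and both replicate 3 libraries were the low ones. Per 1000 peaks of the list these were 0.447 ± 0.028 in Dek_cKO and 0.488 ± 0.088 in Dek_fl (SD, n = 3 each). The log2 ratio of the geometric means, Dek_cKO over Dek_fl, was 0.10, and it turned to −0.083 without Dek_cKO replicate 1, −0.13 without Dek_cKO replicate 2 and −0.21 without Dek_fl replicate 3. With each list kept to its 23809 strongest peaks, the windows held 13, 13 and 13 peaks in Dek_cKO and 13, 12 and 14 in Dek_fl.

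**Figure D1:**
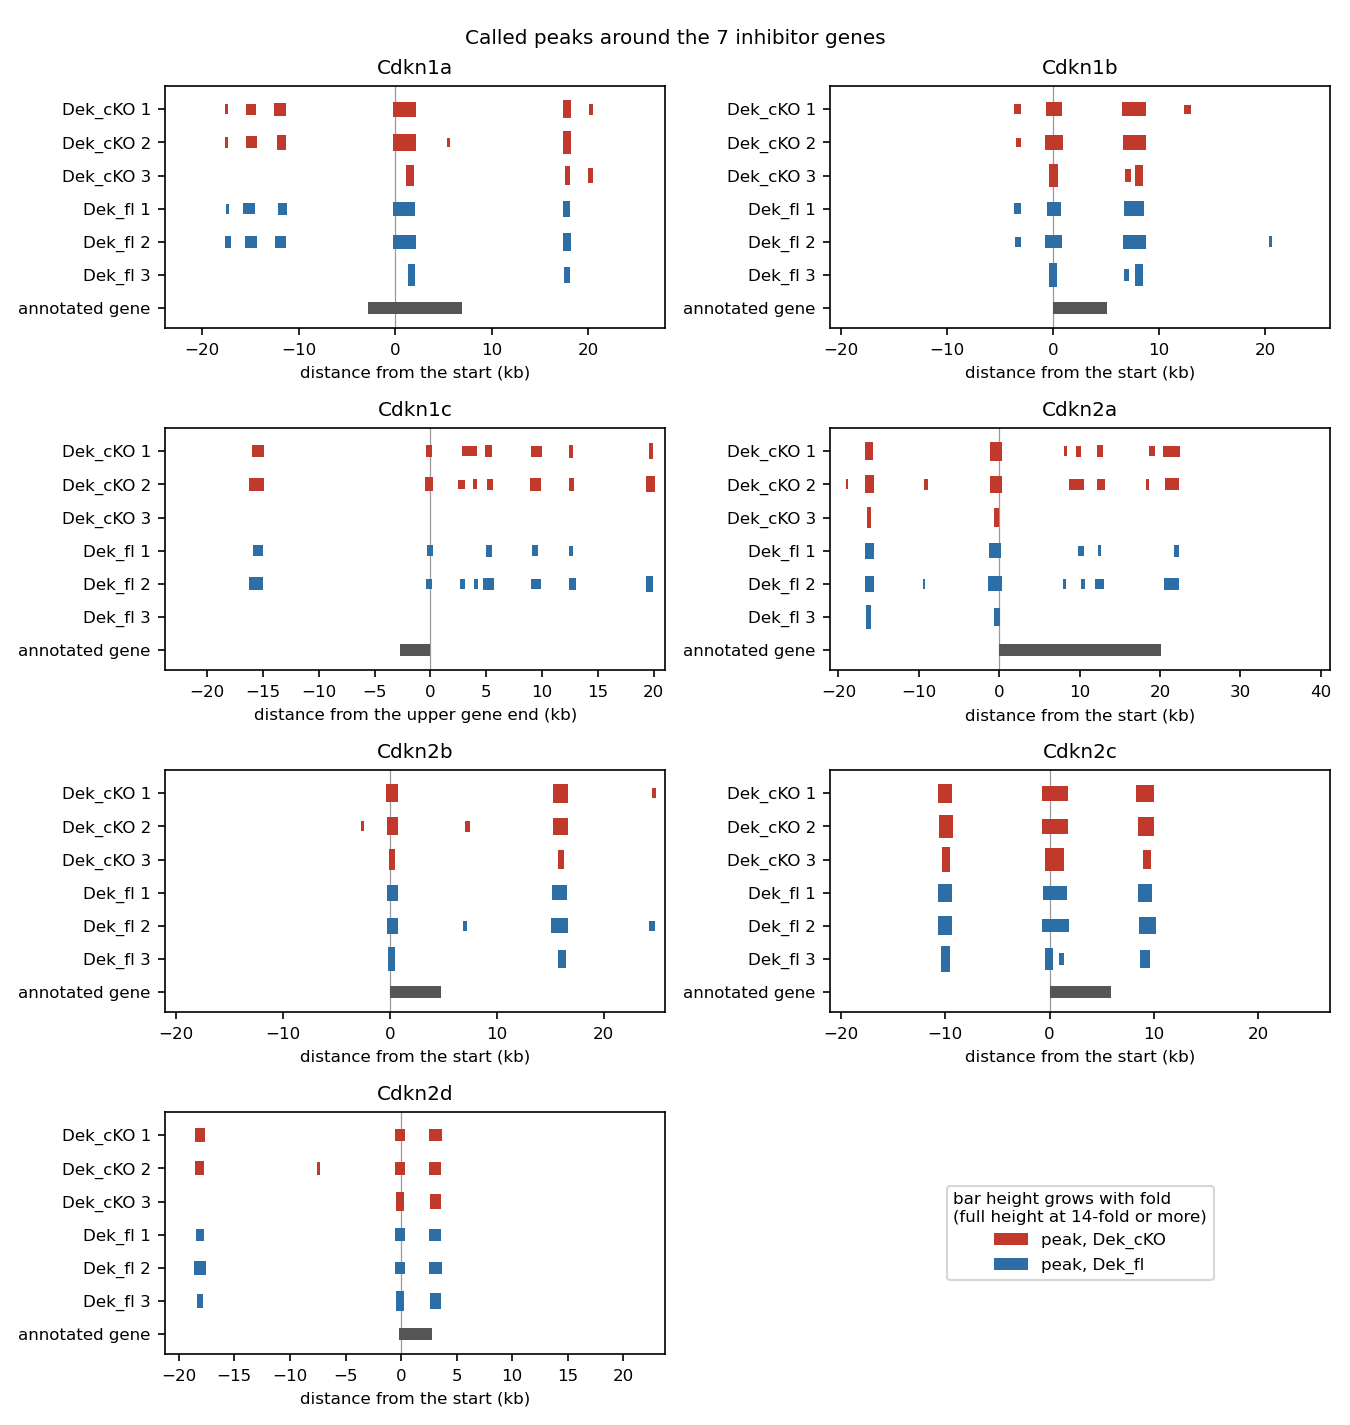
Peaks called in each library around the 7 genes, by distance from the start used (kb; for Cdkn1c from the upper gene end), with Dek_cKO libraries in red above Dek_fl libraries in blue and the annotated gene in grey. Peaks stand at the start of Cdkn1b, Cdkn2b, Cdkn2c and Cdkn2d in all 6 rows, whereas the Cdkn1c panel is empty in both replicate 3 rows.

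Of the 36 regions, 11 were called in all 6 libraries (genome-wide 23.3%) and 12 in all 4 libraries of replicates 1 and 2 but in no replicate 3 (genome-wide 25.7%). A further 7 were called in 1 library (genome-wide 16.1%), of which 6 were Dek_cKO and 1 Dek_fl, with folds from 1.66 to 4.11. The other 6 regions were called in 2 to 5 libraries. At least 1 Dek_cKO and no Dek_fl library called 7 regions (genome-wide 13.5%), and at least 1 Dek_fl and no Dek_cKO library called 1 (genome-wide 6.18%). None of the 36 was called in all 3 Dek_cKO and 0 Dek_fl libraries (genome-wide 0.104%), and none the other way round (genome-wide 0.00355%). A region called in Dek_cKO replicates 1 and 3, with folds of 2.93 and 6.21, and in no Dek_fl library lay about 20 kb downstream of the downstream Cdkn1a start, at chromosome 17 from 29113795 to 29114260, beside an end of Rab44, a small GTPase gene. It is the 1 region in these windows that all Dek_cKO libraries and no Dek_fl library called when Dek_cKO replicate 2 was left out.

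At their starts, 7 of the 7 genes had a peak within 1 kb in replicates 1 and 2 of both groups, and 5 of 7 in replicate 3 of both groups. Cdkn1c was counted at its upper annotated end, as it has no tabulated start. The share of all genes in each single library is not given here. The 5 with a start peak in all 6 libraries were Cdkn1b, Cdkn2a, Cdkn2b, Cdkn2c and Cdkn2d, where 50.4% of 21631 protein-coding genes had one. Cdkn1a and Cdkn1c were the genes without one in replicate 3. The Cdkn1a region was still called there, but its peaks began 1131 and 1296 bases past the downstream start in Dek_cKO and Dek_fl. The Cdkn1a level below includes these peaks, and its summits lay inside the gene in every library. Fold is the enrichment of the peak summit over the list's own background, so levels are compared by the percentile of the fold within its list. That percentile also depends on how many weak peaks a list holds, so lists of unequal length are not on a common scale. Over the libraries that called them, the start regions stood in the order Cdkn2b (80.4 ± 7.8), Arf start of Cdkn2a (69.2 ± 17.6), Cdkn1a (69.1 ± 6.6), Cdkn1b (66.1 ± 15.0), Cdkn2c (65.8 ± 13.6) and Cdkn2d (45.3 ± 12.1) in percentile of fold (SD, n = 6 libraries each). Below them came Cdkn1c (23.6 ± 16.2) and the p16 start of Cdkn2a (15.6 ± 9.7; SD, n = 4 libraries each). The ranges of all neighbours in this order overlapped. The order depends on the measure: by percentile of the −log10 p-value it was Cdkn1b (93.6), Cdkn2d (93.4), Cdkn1a (90.3), Cdkn2c (90.1), Cdkn2b (78.4) and the Arf start (70.6), followed by Cdkn1c (50.8) and the p16 start (20.7). In equal-length lists the mean percentile of fold was 59.8 at Cdkn2b, 47.4 at the Arf start, 40.5 at Cdkn1a, 37.5 at Cdkn2c, 37.1 at Cdkn1b and 20.8 at Cdkn2d.

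Cdkn1a encodes p21, the best known target of p53. It spans chromosome 17 from 29090979 to 29100722, and its start region ran from 29093546 to 29095911. The fold there was 6.12, 7.73 and 9.84 in Dek_cKO replicates 1, 2 and 3 and 5.22, 5.32 and 10.6 in Dek_fl replicates 1, 2 and 3. The groups overlapped, and replicate 3 was highest in both. The −log10 p-value was 103, 114 and 57.3 in Dek_cKO and 44.7, 97.5 and 70.1 in Dek_fl. In all 6 libraries the summit lay inside the gene, 1716 to 1739 bases downstream of the downstream start in Dek_cKO and 1714 to 1795 bases in Dek_fl. The peak of Dek_cKO replicate 3 began 1131 bases and that of Dek_fl replicate 3 began 1296 bases past this start, which left it uncovered there. No library had a peak within 2567 bases of the upstream start, whose window has few CpG. The rank score, the normal quantile of the fold's rank among the 19683 regions called in all 6 libraries, differed by −0.012 between Dek_cKO and Dek_fl (SE 0.39, n = 3 per group; the Dek_fl mean was subtracted), and leaving out 1 library at a time gave −0.23 to 0.35.

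Around Cdkn1a, a flanking region 17.4 kb downstream of the downstream start, at chromosome 17 from 29111140 to 29111970, had a peak in every library. Its fold was 8.37, 11.1 and 8.50 in Dek_cKO and 6.67, 7.65 and 7.03 in Dek_fl. Every Dek_cKO fold was above every Dek_fl fold, but folds depend on each list's background, and the within-list percentiles overlapped, at 88.3, 96.8 and 52.2 in Dek_cKO and 84.1, 90.2 and 39.0 in Dek_fl. The rank score was higher by 0.36 (SE 0.46, n = 3 per group) in Dek_cKO, and without Dek_cKO replicate 2 the difference was −0.022. On the upstream side 3 regions were called only in replicates 1 and 2 of both groups. The nearest, from 29081207 to 29082601, had folds of 4.60 and 6.03 in Dek_cKO and 3.71 and 3.87 in Dek_fl, with percentiles of 42.6 and 59.7 in Dek_cKO and 33.5 and 36.2 in Dek_fl. Among the 23809 strongest peaks of each list it was held by 2 Dek_cKO libraries and 0 Dek_fl libraries. The other two lay at the long noncoding RNA gene Trp53cor1 (lincRNA-p21), known in the mouse as a p53 target, with folds of 2.54 to 3.89 in Dek_cKO and 2.55 to 3.67 in Dek_fl, and overlapped between the groups. The remaining Cdkn1a peak, inside the gene, was called in Dek_cKO replicate 2 alone with a fold of 1.83.

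Cdkn1b encodes p27, and spans chromosome 6 from 134920401 to 134925525. Its start region, from 134919650 to 134921360, had folds of 5.36, 6.19 and 11.5 in Dek_cKO and 5.05, 4.53 and 12.5 in Dek_fl. Replicate 3 was again highest in both groups, and the groups overlapped. Summits lay 33 to 194 bases after the start in Dek_cKO and from 29 bases before to 103 after it in Dek_fl, and every library covered the whole 300-base window printed above. The percentile of the −log10 p-value was 93.9 ± 1.5 in Dek_cKO and 93.3 ± 3.9 in Dek_fl (SD, n = 3 each), and that of fold was 54.6, 61.6 and 79.0 in Dek_cKO and 62.7, 49.6 and 88.9 in Dek_fl. The rank score difference was −0.19 (SE 0.59, n = 3 per group), with −0.65 to 0.44 when 1 library at a time was left out.

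Downstream of Cdkn1b, a region at the noncoding RNA gene Lockd, whose start is known in mouse erythroid cells as an enhancer of Cdkn1b, ran from 134926908 to 134929146 and had a peak in every library. Its folds were 5.35, 6.22 and 10.4 in Dek_cKO and 5.52, 5.46 and 10.2 in Dek_fl. The fold order overlapped, and the rank score difference was −0.33 (SE 0.42, n = 3 per group). A weak region 3.0 kb upstream of the start, from 134916694 to 134917382, had folds of 2.24 and 1.78 in Dek_cKO replicates 1 and 2 and 3.01 and 2.22 in Dek_fl replicates 1 and 2. Its percentiles were 1.73 and 0.095 in Dek_cKO and 15.0 and 3.05 in Dek_fl, lower in both Dek_cKO libraries. Equal-length lists kept this weak region in 0 Dek_cKO libraries and 1 Dek_fl library. Of 2 further peaks, 1 was called in Dek_cKO replicate 1 alone and 1 in Dek_fl replicate 2 alone.

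Cdkn1c encodes p57, the inhibitor most closely tied to stem cell quiescence in mouse bone marrow, and is expressed from the maternal allele. It spans chromosome 7 from 143458339 to 143461059. None of the 7 regions in its window was called in replicate 3 of either group, and 5 were called in all 4 of the other libraries. The region at the upper gene end, from 143460590 to 143461261, had folds of 3.38 and 5.14 in Dek_cKO replicates 1 and 2 and 2.90 and 2.87 in Dek_fl replicates 1 and 2. Its −log10 p-value was 22.8 and 38.2 in Dek_cKO and 10.5 and 16.9 in Dek_fl. Both Dek_cKO libraries were above both Dek_fl libraries, also in percentile of fold, at 20.5 and 47.3 in Dek_cKO and 11.7 and 14.9 in Dek_fl. In equal-length lists 1 Dek_cKO library and 0 Dek_fl libraries kept it. The region nearest beyond it to be called in all 4, from 143465756 to 143466736, lay at an end of Gm33663. It went the other way in percentile of fold, at 32.9 and 19.4 in Dek_cKO and 36.8 and 44.0 in Dek_fl. Its folds overlapped, at 4.07 and 3.53 in Dek_cKO and 3.82 and 4.26 in Dek_fl. Equal-length lists kept this region in 0 Dek_cKO libraries and 2 Dek_fl libraries. The other 3 regions called in 4 libraries overlapped between the groups in percentile, with folds of 2.96 to 4.95 in Dek_cKO and 2.60 to 4.31 in Dek_fl. A weak region from 143463526 to 143465290 had folds of 2.44 and 2.42 in Dek_cKO and 2.23 in Dek_fl replicate 2. The strongest by fold in this window, from 143480315 to 143481199 inside the transporter gene Slc22a18, had folds of 6.50 in both Dek_cKO replicates 1 and 2 and 6.80 in Dek_fl replicate 2, with no peak in Dek_fl replicate 1.

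Across the 12 regions called only in replicates 1 and 2, both Dek_cKO percentiles of fold were above both Dek_fl percentiles at 4, against 25.3% of the 21701 such regions genome-wide. They were below at 3, against 6% genome-wide, and the groups overlapped at 5. The 4 were the upper Cdkn1c end, the p16 start, a region inside Cdkn2a and the region upstream of Cdkn1a. The genome-wide shares were themselves unequal, so Dek_cKO percentiles above those of Dek_fl are the commoner direction in these lists, which differ in length. With 2 libraries in each group no test was made of these values.

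Cdkn2a and Cdkn2b lie beside each other on chromosome 4, and 5 regions fell in both windows. Cdkn2a spans 89274473 to 89294619. The region at the Arf start, from 89294324 to 89295963, was called in all 6 libraries, with folds of 8.91, 7.30 and 8.65 in Dek_cKO and 6.17, 6.07 and 7.36 in Dek_fl. Dek_cKO replicate 2 lay below Dek_fl replicate 3, so the groups overlapped. A start or end of Gm12610 also lay within 1 kb of this region, so its peaks cannot be assigned to the Arf start alone. Percentiles of fold were 91.8, 73.8 and 54.2 in Dek_cKO and 78.8, 73.5 and 43.2 in Dek_fl. Summits lay upstream of the start in every library, by 262 to 440 bases in Dek_cKO and 262 to 437 bases in Dek_fl, and in Dek_cKO replicate 3 the peak ended 80 bases short of the start. The rank score was higher by 0.27 (SE 0.36, n = 3 per group) in Dek_cKO, and without Dek_cKO replicate 1 the difference was −0.067.

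The p16 start, from 89281415 to 89282715, was weaker and was called in replicates 1 and 2 alone. Its folds were 3.90 and 3.21 in Dek_cKO and 2.88 and 2.56 in Dek_fl, both Dek_cKO values above both Dek_fl values. Percentiles of fold were 29.8 and 13.2 in Dek_cKO and 11.4 and 7.94 in Dek_fl, so all 4 stood in the lower part of their lists. In equal-length lists no library kept this region. A region between the Cdkn2a starts, from 89283951 to 89285943, had folds of 3.03 and 3.24 in Dek_cKO and 2.59 and 2.41 in Dek_fl. Beyond the far end of the gene, the region from 89272170 to 89274234 had percentiles of 15.9 and 26.5 in Dek_cKO and 40.9 and 27.7 in Dek_fl, lower in both Dek_cKO libraries. Peaks in 1 or 2 libraries inside Cdkn2a had folds of 2.04 to 2.61 in Dek_cKO and 2.25 in Dek_fl.

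Cdkn2b encodes p15, which is induced by TGF-β in many cells, and spans 89306289 to 89311032 on the minus strand. Its start region, from 89310233 to 89311360, had folds of 8.17, 8.09 and 9.75 in Dek_cKO and 6.42, 6.65 and 12.1 in Dek_fl. Dek_fl replicate 3 was the highest of the 6 and the other Dek_fl libraries the lowest, so the groups overlapped. The Cdkn2b start region also lay inside Gm12610. The rank score difference was −0.24 (SE 0.34, n = 3 per group), and without Dek_fl replicate 3 it was 0.037. The remaining Cdkn2b regions had 2 peaks in Dek_cKO replicate 2, with folds of 2.29 and 3.15, and 1 in Dek_fl replicate 2, with a fold of 2.36.

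Cdkn2c encodes p18, known in the mouse for limiting stem cell self-renewal, and spans chromosome 4 from 109660876 to 109666756. All 3 regions of its window were called in all 6 libraries. The start region, from 109664929 to 109667474, spans both tabulated starts, and its folds were 5.87, 5.49 and 11.9 in Dek_cKO and 5.32, 4.60 and 11.3 in Dek_fl. At each replicate number Dek_cKO was above Dek_fl in fold, yet the groups overlapped, and the rank score difference was −0.13 (SE 0.55, n = 3 per group), with −0.63 to 0.35 when 1 library at a time was left out. Summits lay 109 to 196 bases upstream of the upstream start in Dek_cKO and 172 to 302 bases upstream of it in Dek_fl. A flanking region at an end of Faf1, which encodes a Fas-associated factor, ran from 109676030 to 109677490 and stood highest of the 11 shared regions, with percentiles of fold of 92.0, 97.9 and 87.8 in Dek_cKO and 94.8, 95.4 and 91.5 in Dek_fl. Its rank score difference was −0.086 (SE 0.31, n = 3 per group), and without Dek_cKO replicate 1 it was 0.060. The region from 109656602 to 109658503, at an end of 9630013D21Rik, had percentiles of 78.6, 83.0 and 57.4 in Dek_cKO and 94.2, 87.1 and 47.0 in Dek_fl. There the rank score differed by −0.39 (SE 0.38, n = 3 per group), and by −0.67 within replicates 1 and 2.

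Cdkn2d encodes p19Ink4d and spans chromosome 9 from 21288459 to 21291421. Its start region, from 21290840 to 21291756, had folds of 4.08, 4.91 and 8.29 in Dek_cKO and 4.39, 3.66 and 9.05 in Dek_fl. These overlapped, and the rank score difference was −0.29 (SE 0.50, n = 3 per group), or 0.18 without Dek_fl replicate 3. The percentile of fold was 45.3 ± 12.1 and that of the −log10 p-value 93.4 ± 3.9 over the 6 libraries (SD), the widest gap among the start regions called in all 6. At the other end of the gene, shared with Kri1, a gene of ribosome biogenesis, the region from 21287502 to 21288732 had folds of 3.86, 4.48 and 5.97 in Dek_cKO and 4.01, 3.41 and 5.96 in Dek_fl, with a rank score difference of −0.17 (SE 0.32, n = 3 per group). A region from 21308767 to 21309811, inside Ap1m2, had folds of 5.32 and 5.22 in Dek_cKO replicates 1 and 2 and 3.93, 4.73 and 4.52 in Dek_fl replicates 1, 2 and 3, with no peak in Dek_cKO replicate 3. A peak in Dek_cKO replicate 2 alone had a fold of 4.11.

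**Figure D2:**
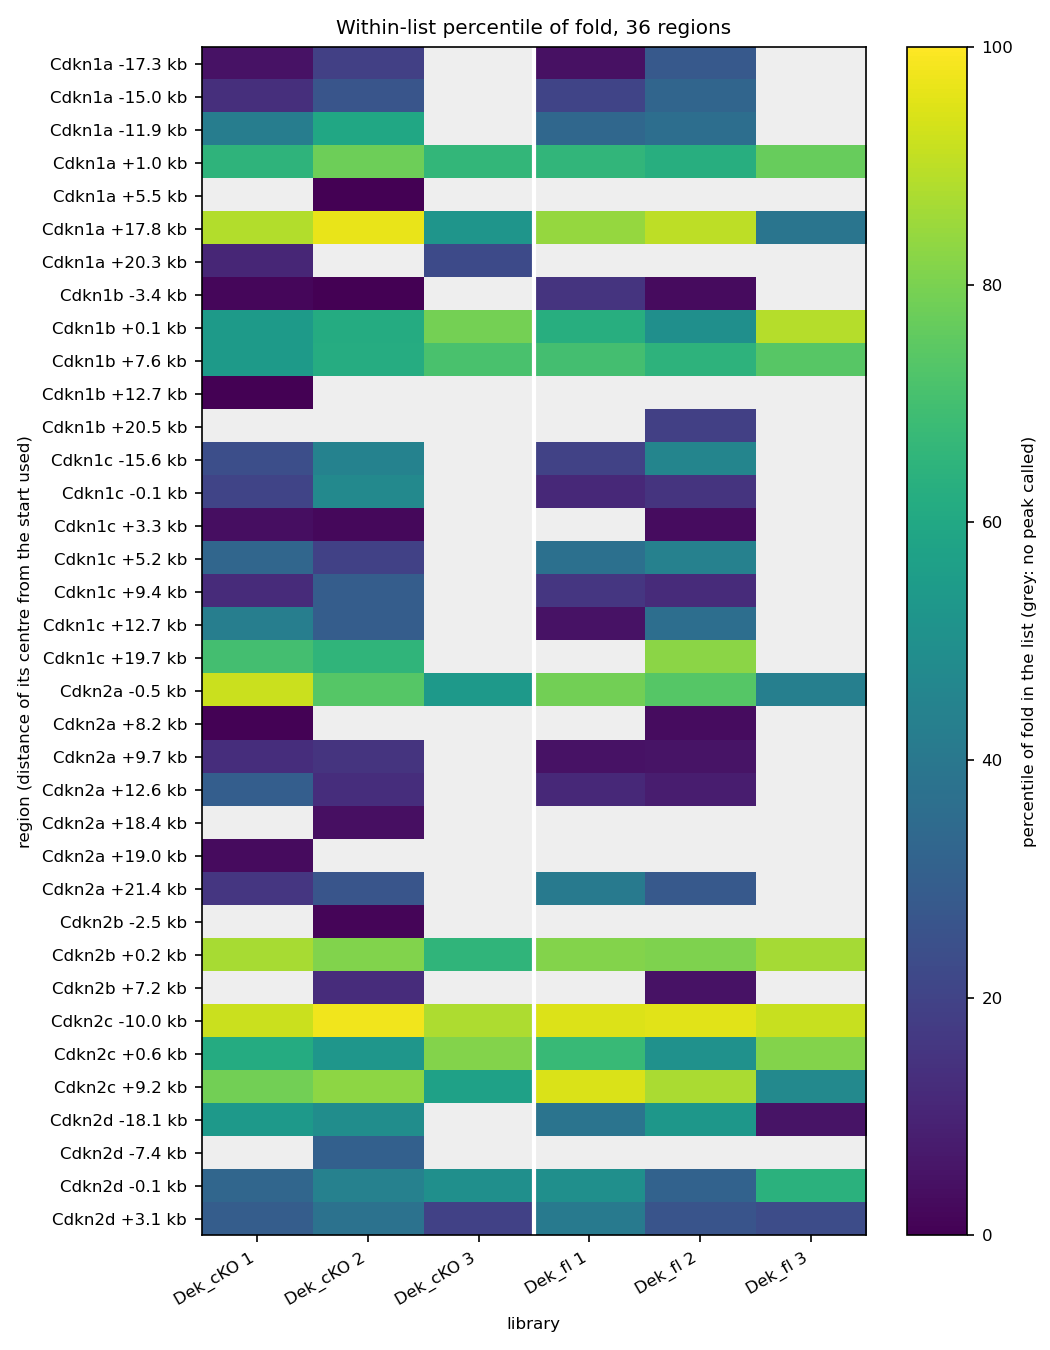
Percentile of fold within each list (colour, 0 to 100) for the 36 regions in rows and the 6 libraries in columns, Dek_cKO left of the white line and Dek_fl right of it, with grey where no peak was called. Start regions of Cdkn1b, Cdkn2b and Cdkn2c are coloured in all 6 columns, and the 7 Cdkn1c rows are grey in both replicate 3 columns.

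**Figure D3:**
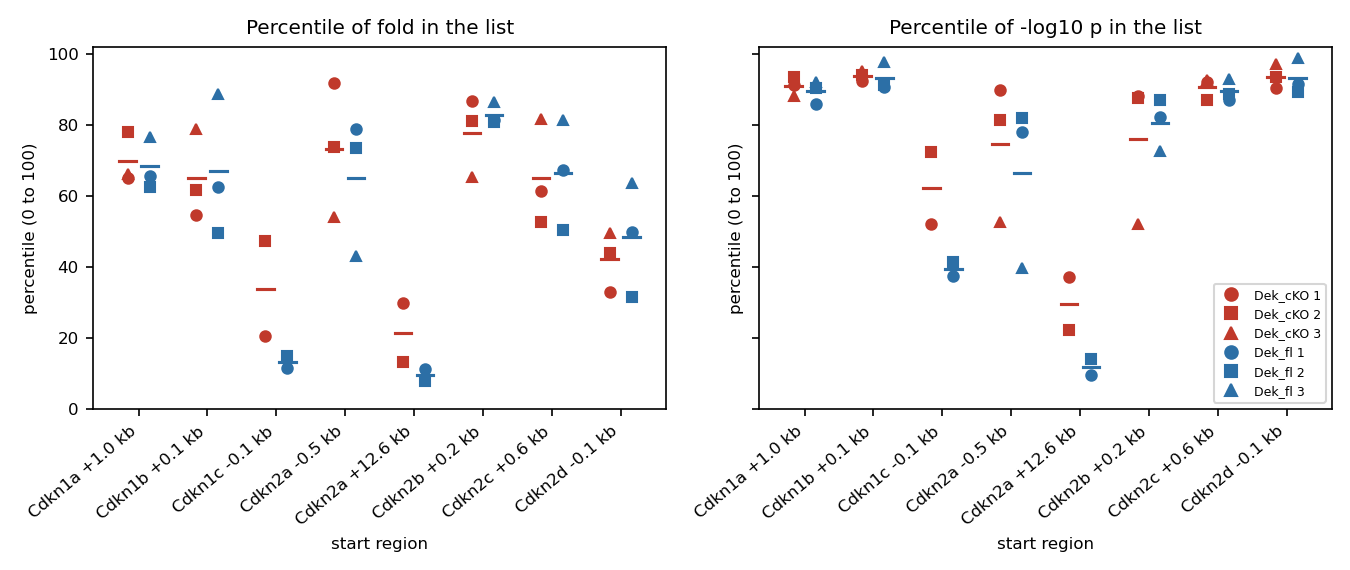
Percentile within the list (0 to 100) of fold on the left and of −log10 p on the right at the start regions, with Dek_cKO in red left of Dek_fl in blue, 1 symbol per library and a bar at each group's mean. Cdkn2d stands at 45.3 on average in fold and 93.4 in −log10 p, and the p16 start (Cdkn2a +12.6 kb) is low in both.

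The rank test asked whether any of these shared regions stood at another place in the lists of the Dek_cKO libraries than in those of the Dek_fl libraries. By limma with Benjamini-Hochberg adjustment over all 19683 shared regions, 0 ranked higher (0%) and 0 ranked lower (0%) in Dek_cKO at an adjusted p below 0.05, and so none of the 11 in the inhibitor windows did. Unadjusted p-values below 0.05 were found at 68 regions higher (0.345%) and 19 lower (0.0965%), none of them in these windows. Far fewer regions passed than a p threshold of 0.05 lets through when nothing differs, so the main fit was conservative. Its 0 calls do not show that the groups are alike. The unadjusted counts of higher and lower regions were 585 and 289 with the replicate number as a block. They were 545 and 302 with a replicate 3 term, and 23 to 300 and 15 to 68 with 1 library left out. Again none of the 11 was among them in any of these fits. In replicates 1 and 2 alone they were 391 and 143, and there the 9630013D21Rik end beside Cdkn2c had the lowest unadjusted p of the 11, 0.048, by limma. The adjusted p was 1.0 at each of the 11 in limma. The mean rank score was higher in Dek_cKO at 2 of the 11, the Arf start and the flank downstream of Cdkn1a, and lower at 9. The median difference of the 11 was −0.17, against −0.018 over all shared regions, 47.3% of which had the higher mean in Dek_cKO. This tally rested on single libraries: without Dek_fl replicate 3 it was 7 higher and 4 lower with a median of 0.037, and without Dek_cKO replicate 1 it was 5 higher and 6 lower with a median of −0.054. It was 4 and 7 with a median of −0.032 when ranked by −log10 p, and 5 and 6 with a median of −0.018 in replicates 1 and 2 alone. In none of the 11 were all Dek_cKO scores above all Dek_fl scores (genome-wide 2.1%) or all below (genome-wide 2.27%). The standard errors, from 0.31 to 0.59, exceeded the difference at 10 of the 11. With the replicate number as a block they were 0.27 to 0.28 and were below the size of the difference at 4 of the 11, the 9630013D21Rik end, Lockd, the Cdkn2d start and the flank downstream of Cdkn1a, none of which passed the limma test. At all 3 replicate numbers, Dek_cKO scored higher than Dek_fl at 1 of the 11, the flank downstream of Cdkn1a (genome-wide 10.4%), and lower at 2, Lockd and the Cdkn2c start (genome-wide 12%).

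**Figure D4:**
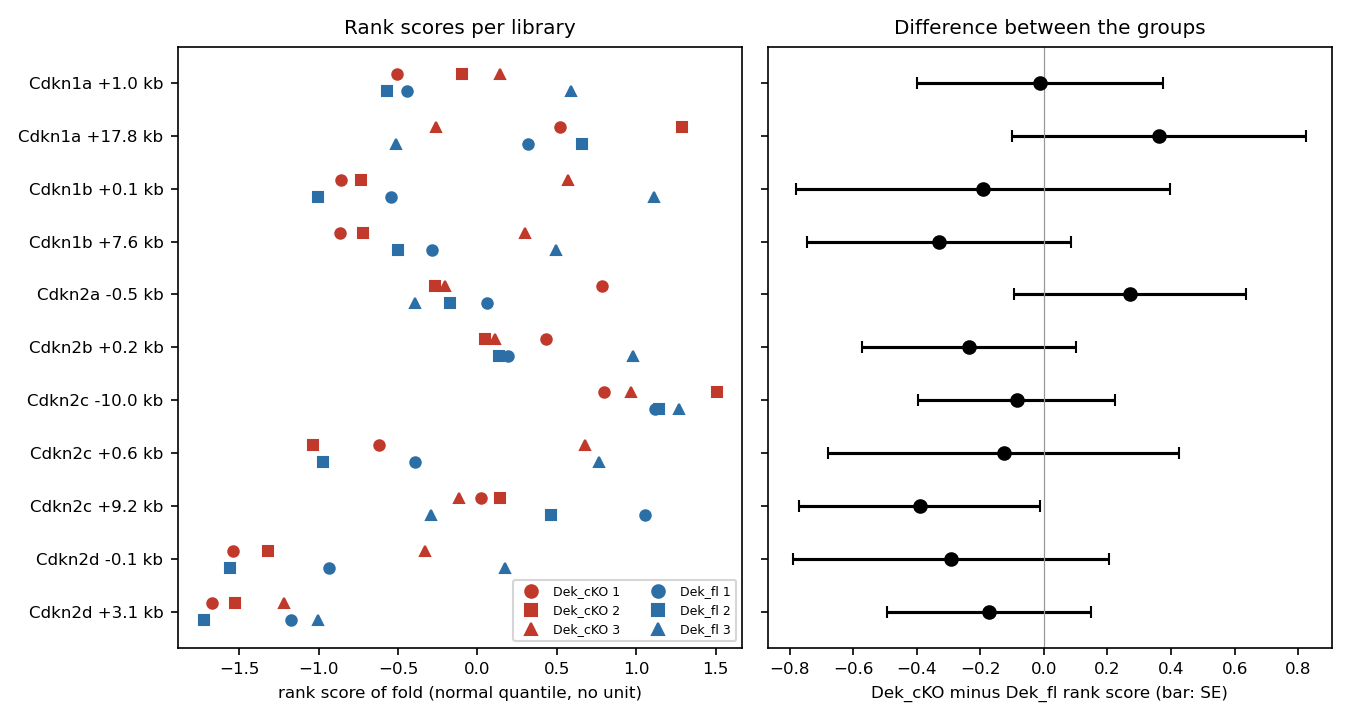
Left, rank scores of fold (normal quantile among the shared regions, no unit) at the 11 regions called in all 6 libraries, 1 symbol per library, Dek_cKO in red above Dek_fl in blue. Right, the Dek_cKO minus Dek_fl difference with its SE, between −0.39 and 0.36, where 10 of the 11 bars cross 0.

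The genes on which the inhibitors act were set beside them, as a list of 25 genes of the passage from G1 into S phase. A start peak was present in all 6 libraries at 23 of the 25, against 50.4% of protein-coding genes. The exceptions were Ccnd1, a D-type cyclin, with 2 Dek_cKO and 2 Dek_fl libraries, and the transcription factor gene E2f2, with 2 Dek_cKO and 3 Dek_fl libraries. Of the 23, 7 had the higher and 16 the lower mean rank score in Dek_cKO, with a median difference of −0.11, and none passed the limma test. The largest differences were −0.69 at E2f5, −0.49 at Ccnd3, 0.45 at E2f6, −0.42 at Ccna2 and −0.41 at Cdk6, the kinase bound by the Ink4 proteins. Among 11 regulators of the inhibitors, 9 had a peak in all 6 libraries, including Trp53, Mdm2, Foxo3 and Myc. Bmi1, which represses Cdkn2a, had a start peak in 2 Dek_cKO and 2 Dek_fl libraries, and its Polycomb partner Ring1 in 3 Dek_cKO and 2 Dek_fl libraries. The mean rank score of the 9 was higher in Dek_cKO at 2 and lower at 7, with a median difference of −0.14, and none passed the limma test. Over all shared regions, 47.3% had the higher mean in Dek_cKO, with a median difference of −0.018. The tallies of these lists were not repeated with libraries left out, and a shift of either list was not tested.

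The start regions most like those of the inhibitors across the 6 libraries were found by the mean absolute difference of rank score over 9918 regions at protein-coding genes. Cdkn1a was closest to Tmem50a (0.073), Cdkn1b to Kat6b (0.090), the Arf start to Ppara (0.12), Cdkn2b to Faap20 (0.067), Cdkn2c to the region of Tjp3 and Pip5k1c (0.087) and Cdkn2d to Mknk2 (0.066). The median of this difference over all regions compared was 0.73 to 1.30 for these 6 genes. All these regions share the same 6 libraries and the difference in list between replicate 3 and the rest.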

How the data were processed

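The authors made a separate peak list for each library. Per the submitters' processing notes, the tools were Bowtie2, Picard and MACS2 and the build mm10. No source used here gives their versions or settings, or says if reads were shifted for Tn5. Each row deposited by the authors has a score, the fold of the summit over local background, a −log10 p-value and a −log10 q-value. In these deposited lists the score followed 10 times the −log10 q-value in replicates 1 and 2 and 10 times the −log10 p-value in replicate 3 of both groups, so the replicate number also marks how a list was made. These are the authors' own values per peak, and served only to rank, filter or describe peaks within a list. Read depth is unknown, so no counting interval is given.

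Peaks of the 6 lists on chromosomes 1 to 19 and X were merged into regions where they overlapped by at least 1 bp, and a library's value in a region is that of its strongest peak. Folds of regions called in all 6 libraries were ranked within each library, converted to normal quantiles and tested by limma 3.58.1 (R 4.3.3), with Benjamini-Hochberg adjustment and a threshold of 0.05. Other steps used Python 3.11.15, numpy 2.4.6 and scipy 1.17.1, and figures matplotlib 3.10.9. The limma step was tested on simulated data with independent noise in each library, without the deviation that the replicate 3 libraries share in these data. Starts came from the RefSeq promoter table (1-based coordinates), and a peak within 1 kb counted as at a start; for genes with no entry there, the annotated ends were used. The RefSeq gene table gives no exons or UTRs, so regions are placed at a start, in the gene body or in the flank.

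Same-numbered libraries deviated together from their group means, with correlations of 0.27, 0.52 and 0.74 for replicates 1, 2 and 3. However, Dek_cKO replicate 1 followed Dek_fl replicate 2 more closely (0.57), and Dek_cKO replicate 2 and Dek_fl replicate 1 correlated at 0.31. A replicate 3 library of either group gave −0.35 to −0.66 with replicates 1 and 2 of the other group. The correlations thus set replicate 3 apart, and do not show that replicates 1 and 2 were matched by number. The main limma fit did not pair the libraries, and the replicate number entered only in the replicate block. The series text names duplicates, but the labels list 3 libraries in each group. No row was identical between libraries. Alternatives were the replicate block, a replicate 3 term, ranks by −log10 p, equal-length lists, a −log10 q of at least 10, windows of 500 bp at summits, replicates 1 and 2 alone, other window widths and each library left out. All 7 genes are named, with regions at starts and those called in 4 or more libraries in full, and, of the lists, genes called in unequal numbers and the 5 largest differences; other genes are named as examples chosen after their values were seen. The members and the gene lists were chosen with earlier results of these data known. Some genes of the marker lists are not reported here.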

Additional observations from a re-analysis of the deposited data

How the results depend on the processing

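No alternative changed the side of the threshold of any of the 11 shared inhibitor regions, and their adjusted p in limma was 0.976 or more throughout. In the fit with a replicate block, 1 region genome-wide ranked higher in Dek_cKO and 0 lower, and the block changed no call in the inhibitor windows; leaving out each library gave 0 to 0 in both directions. The sign of the rank score difference turned at Cdkn2b with replicates 1 and 2 alone (0.080), at the Faf1 end by −log10 p (0.20) and with replicates 1 and 2 alone (0.023), and at Cdkn1a by −log10 p (0.042), in equal-length lists (0.037), at a −log10 q of at least 10 (0.0048) and with replicates 1 and 2 alone (0.21). Leaving out 1 library at a time gave −0.067 to 0.46 at the Arf start, −0.38 to 0.037 at Cdkn2b, −0.74 to −0.068 at the 9630013D21Rik end, −0.63 to 0.35 at Cdkn2c, −0.29 to 0.060 at Faf1, −0.65 to 0.44 at Cdkn1b, −0.69 to −0.036 at Lockd, −0.39 to −0.024 at Kri1, −0.68 to 0.18 at Cdkn2d, −0.23 to 0.35 at Cdkn1a and −0.022 to 0.75 at its downstream flank. These signs turned without Dek_cKO replicate 1, Dek_cKO replicate 2 or Dek_fl replicate 3, and the cause was not tested. The log2 ratio of peaks in the windows lay between −0.21 and 0.52 with 1 library left out. Regions called in all Dek_cKO and no Dek_fl libraries numbered 88 genome-wide, 40 in equal-length lists, 51 at a −log10 q of at least 10, 2555 with replicates 1 and 2 alone and 94 to 2492 with 1 library left out. The reverse numbered 3, and 72, 1, 282 and 4 to 275 under the same alternatives, and 11 with summit windows. In the inhibitor windows the Dek_cKO count was 0 to 1 and the Dek_fl count 0 to 0 with 1 library left out.

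Read depth is unknown, and the replicate 3 lists are shorter and stricter, so an uncalled region there is not shown to be closed. In equal-length lists 17 of the 36 regions were called anywhere and 11 in all 6 libraries. At a −log10 q of at least 10 these numbers were 25 and 11. Genome-wide, 19683 regions were called in all 6 full lists, 15118 in all 6 equal-length lists and 14455 in all 6 at that −log10 q. The genome-wide share called anywhere under these cuts is not given here, so neither loss nor retention is read as particular to these genes. A peak list holds no value for a region below its threshold, so levels at Cdkn1c and at the p16 start rest on 4 libraries. The Tek peaks go against the labels if the transgene carries that DNA, which was not tested, and this bears on every direction. Exons were not known, and accessibility was not compared with expression here.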

Other observations

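With narrower windows of 5 kb on either side of the 7 genes, the libraries held 18, 20 and 10 peaks in Dek_cKO and 15, 19 and 11 in Dek_fl. With windows of 50 kb they held 56, 60 and 24 peaks in Dek_cKO and 47, 58 and 27 in Dek_fl. At both widths the groups overlapped, and both replicate 3 libraries were the lowest.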
